A study of Mus musculus with 21 samples.

Results

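A set of 10 transcripts that mark tissues bordering the ventral pons were followed through all libraries of a facial nerve cut experiment in mice. They were Ttr and Folr1 for the choroid plexus, Prl and Gh for the pituitary gland, Neurod1, Zic1 and Cbln3 for cerebellar granule cells, and Tph2, Slc6a4 and Fev for serotonergic neurons. They were selected by symbol, with their uneven levels in these same libraries already known, and make up 10 of the 45664 gene rows counted. Their own levels are therefore given as a description, and tests are read for the other genes of the same tissues. Some counts below are over tissue lists that include the 10 genes, which is stated there. All 10 passed the filter on low counts that left 22294 genes.

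The block was the ventral pons, which contains the facial nucleus and parts of the neighbouring reticular and spinal trigeminal nuclei, cut with the help of a rodent brain matrix. All mice were C57BL/6 CX3CR1GFP/wt, with green fluorescent protein in place of 1 allele of the microglial receptor gene Cx3cr1, controls included. There were 7 groups of 3 libraries. Unoperated mice of 8 weeks gave the left pons (day 0). Mice whose right facial nerve was cut at the stylomastoid foramen at 8 weeks gave the lesion (right) and contralateral (left) pons at day 7 (9 weeks of age), day 14 (10 weeks) and day 30 (12 weeks). Lesion and side of the body were therefore not varied separately, and day and age cannot be told apart. The column headers give lane 1 for days 0 and 7, lane 2 for day 14 and lane 3 for day 30. As 2 index sequences occur on both day 0 and day 7 under the same lane number, these days did not share 1 lane of a run, and day and sequencing lane or run cannot be told apart. Summed counts were 35874913 to 41448945 in the day 0 libraries and 17358868 to 29827291 in the operated ones. The labels do not say that replicates of a group were separate animals, so the p-values measure the spread between these libraries only.

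The choroid plexus is the epithelium in the ventricles of the brain that secretes cerebrospinal fluid, and its hindbrain part lies in the fourth ventricle, behind the pons. The pituitary lies below the hypothalamus, at the base of the skull, and its lactotrophs and somatotrophs make prolactin and growth hormone. The cerebellum lies over the pons, and the granule cells, its most numerous neurons, form its inner cortical layer. Serotonergic neurons lie in the raphe nuclei along the midline of the brainstem, some of them at the level of the facial nucleus. A transcript of 1 of these tissues in a block of pons can show how much of that tissue, or of its RNA, the block contained. In bulk tissue, fewer cells of a type and less RNA per cell cannot be told apart.

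The bases before the start of Prl and of Tph2 are shown because each belongs to a pair of genes whose levels moved closely together (Prl with Gh, Tph2 with Slc6a4). They are from RefSeq on GRCm38.p6, 250 bases up to the transcription start, and 7 of the 10 genes were read in this way. Capitals mark each match to TATNCAT, a core of the sites that Pou1f1, the pituitary factor of lactotrophs and somatotrophs, is known to bind, or to TATAAA, the TATA box, on either strand. The window of Prl is chr13:27057320-27057569 on the + strand and that of Tph2 chr10:115185023-115185272 on the - strand, both written 5′ to 3′ along the gene.
Prl: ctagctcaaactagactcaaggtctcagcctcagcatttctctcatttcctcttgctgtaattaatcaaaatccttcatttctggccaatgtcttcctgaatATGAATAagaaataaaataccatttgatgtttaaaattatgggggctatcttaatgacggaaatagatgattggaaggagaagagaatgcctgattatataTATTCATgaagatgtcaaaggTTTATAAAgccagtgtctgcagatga
Tph2: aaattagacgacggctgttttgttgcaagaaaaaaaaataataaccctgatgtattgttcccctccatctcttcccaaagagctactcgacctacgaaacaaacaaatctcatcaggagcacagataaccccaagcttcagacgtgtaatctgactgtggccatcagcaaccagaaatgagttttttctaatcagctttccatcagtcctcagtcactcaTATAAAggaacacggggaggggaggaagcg

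Prl held 2 matches to TATNCAT, the first base lying at -148 for the one on the reverse strand and at -47 for the one on the gene's strand. It also held 2 overlapping matches to TATAAA, at -26 on the reverse strand and at -24 on the gene's strand. Tph2 held 1 match to TATAAA, at -30, and no match to TATNCAT. Fev, Neurod1, Zic1, Slc6a4 and Cbln3 held neither run of letters in their windows. Of 32851 promoter windows of the same 250 bases, 7.9% held TATNCAT and 12.4% held TATAAA, so a match by itself is not rare. These are matches of letters, and binding was not measured.

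Levels are given as CPM, counts divided by library size, with a trimmed mean (TMM) correction of that size that lay between 0.972 and 1.03. Several libraries stood apart in these genes. Day 7 lesion replicate 3 and day 14 contralateral replicate 3 were highest in choroid plexus transcript. Day 7 contralateral replicate 1 and day 7 lesion replicates 1 and 3 were highest in pituitary transcript. Fitted differences of Ttr at days 7 and 14 and of Folr1 at day 7, and counts of called genes, are given with and without such libraries below. Fitted differences of Prl are given with all libraries only.

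**Figure D1:**
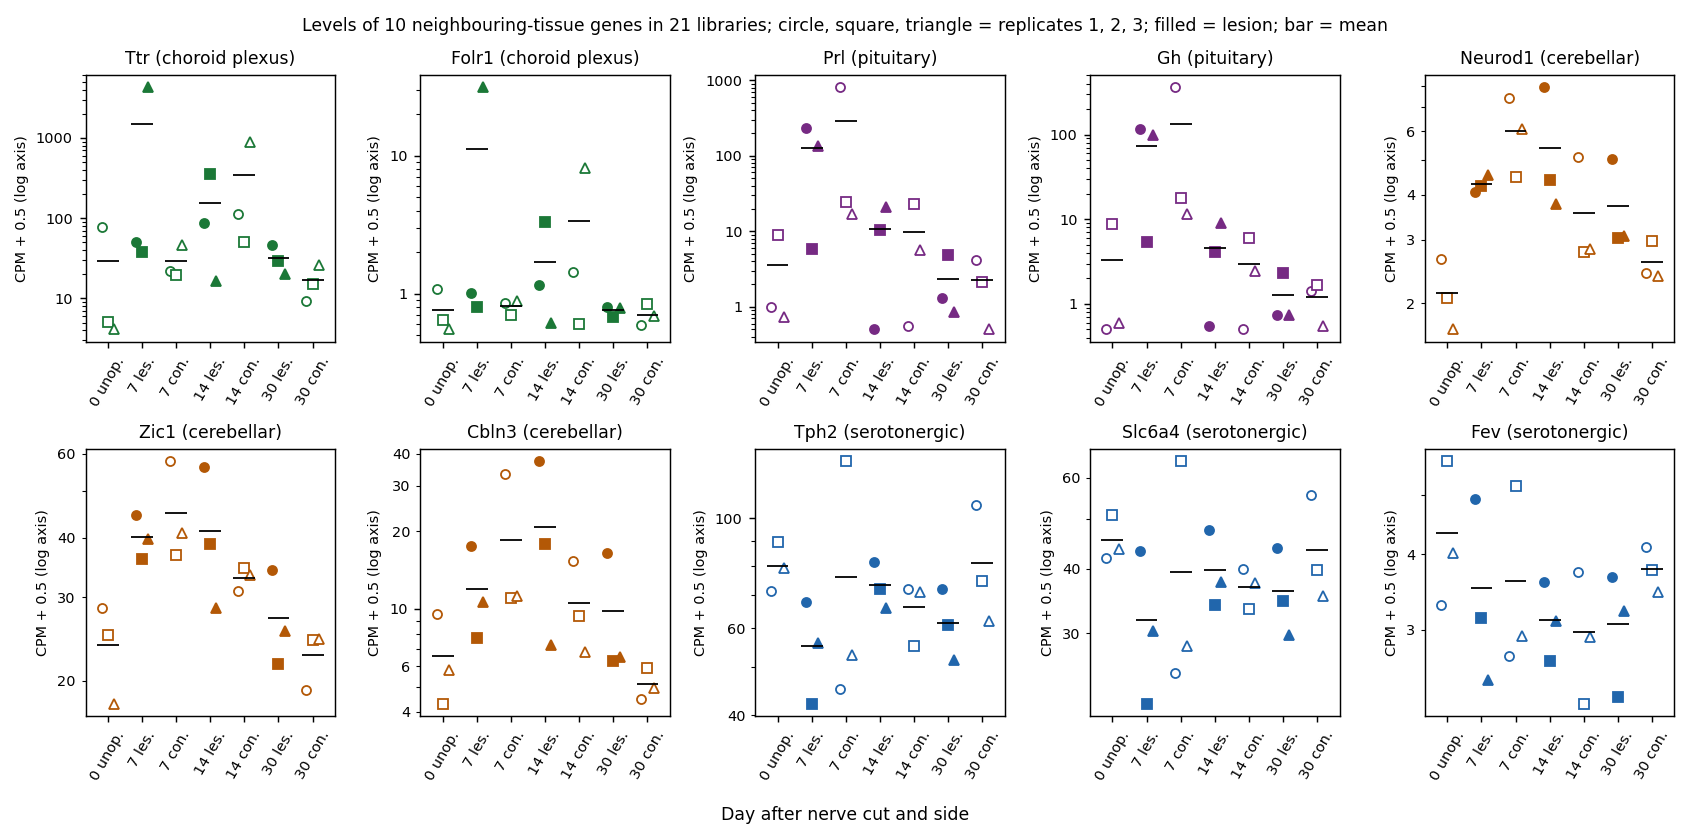
Level of each of the 10 genes in the 21 libraries, as CPM + 0.5 on a log axis whose range differs between panels; groups run along the horizontal axis by day and side, symbols are replicates 1 to 3 (circle, square, triangle), filled symbols are lesion libraries and bars are group means of 3 libraries. Ttr and Folr1 peak in day 7 lesion replicate 3, Prl and Gh in day 7 contralateral replicate 1, and the serotonergic genes spread over a narrow range.

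Ttr encodes transthyretin, the thyroid hormone carrier that the choroid plexus secretes (GRCm38 chromosome 18, 20665280 to 20674321). At day 0 it had 77.1, 4.66 and 3.61 CPM in the unoperated libraries. At day 7 Ttr had 50, 37 and 4350 CPM on the lesion side, against 21.7, 19 and 45.9 CPM on the contralateral side. A single lesion library thus lay far above the other 2 of its group, which sat near the contralateral range. At day 14 Ttr had 85.6, 360 and 16.2 CPM on the lesion side, against 112, 49.6 and 878 CPM on the contralateral side. At day 30 it had 45.7, 28.5 and 19.8 CPM on the lesion side, against 8.86, 14.6 and 25.9 CPM on the contralateral side. The sides overlapped at days 7, 14 and 30, and the highest library of day 14 was a contralateral one.

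The group means of Ttr at day 7 were 1480 ± 2490 CPM on the lesion side and 28.9 ± 14.8 CPM on the contralateral side (SD, n = 3 each), so the SD of the lesion group exceeded its mean. The fitted lesion minus contralateral difference was 5.68 ± 1.95 at day 7 (log2 ± SE), -1.17 ± 1.60 at day 14 and 0.94 ± 1.87 at day 30. Without day 7 lesion replicate 3 the day 7 difference was 0.58 ± 1.49, and without day 14 contralateral replicate 3 that of day 14 was 0.93 ± 1.77, so each rested on 1 library. The sign with all libraries differed between days. Ordered by mean, the groups ran day 7 lesion, day 14 contralateral, day 14 lesion, day 30 lesion, day 7 contralateral, day 0 and day 30 contralateral, and no neighbours in that order differed beyond the spread of their libraries. From the lowest library to the highest, Ttr spanned 1210-fold.

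Folr1 encodes the folate receptor through which the choroid plexus moves folate into cerebrospinal fluid (chromosome 7, 101858331 to 101870788). At day 7 Folr1 had 0.519, 0.299 and 31.2 CPM on the lesion side, against 0.359, 0.199 and 0.389 CPM on the contralateral side. At day 14 Folr1 had 0.658, 2.83 and 0.113 CPM on the lesion side, against 0.93, 0.104 and 7.63 CPM on the contralateral side. These 3 high libraries were the 3 highest for Ttr too. The day 0 libraries had 0.58, 0.141 and 0.0516 CPM. At day 30 the lesion libraries had 0.303, 0.182 and 0.292 CPM and the contralateral ones 0.0963, 0.338 and 0.188 CPM. The fitted lesion minus contralateral difference of Folr1 at day 7 was 5.08 ± 1.74 (log2 ± SE), and 0.34 ± 1.94 without lesion replicate 3. Outside the 3 high libraries Folr1 stayed under 1 CPM throughout. In the 4 libraries with at least 20 counts of both genes, the count of Ttr was 115 to 139 times that of Folr1 (median 130), while Ttr itself ran from 77.1 to 4350 CPM in them. Per kilobase of exon, Ttr averaged 244 CPM and Folr1 0.983 CPM over the 21 libraries.

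Every one of the 16 choroid plexus genes listed, not only the 2 above, was highest in day 7 lesion replicate 3. The secreted ageing suppressor gene Kl reached 87.3 CPM there, against a median of 6.12 CPM over all libraries. The sulfate transporter gene Slc13a4 reached 49.3 CPM against a median of 24.6 CPM, and Prlr, the prolactin receptor gene, reached 31.4 CPM against a median of 8 CPM. Summed over the list, day 7 lesion replicate 3 had 4830 CPM, and the other lesion libraries of that day had 107 and 93.4 CPM. The contralateral libraries of day 7 had 77.4, 79.3 and 107 CPM. At day 14 the sums were 145, 438 and 66.6 CPM on the lesion side and 163, 117 and 1060 CPM on the contralateral side. The 2 choroid plexus genes named first made up 0.442% of all counts in day 7 lesion replicate 3 and a median of 0.00374% over the libraries.

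Prl encodes prolactin, the lactotroph hormone (chromosome 13, 27057570 to 27065205). The unoperated libraries had 0.497, 8.39 and 0.232 CPM. At day 7 Prl had 235, 5.28 and 136 CPM on the lesion side, against 821, 23.9 and 16.6 CPM on the contralateral side. Replicate 1 was thus the highest library on both sides of day 7, and replicate 3 was high on the lesion side alone. At day 14 Prl had 0, 10 and 20.3 CPM on the lesion side, against 0.0489, 22.6 and 5.21 CPM on the contralateral side. Replicate 1 of day 14 was at or next to 0 on both sides, where a count of 0 in the lesion library allows up to 0.151 CPM (3 counts, counting error only). At day 30 Prl had 0.808, 4.36 and 0.34 CPM on the lesion side, against 3.61, 1.63 and 0 CPM on the contralateral side.

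Fitted lesion minus contralateral differences of Prl were -1.20 ± 1.38 at day 7, 0.22 ± 1.85 at day 14 and 0.03 ± 3.36 at day 30 (log2 ± SE), each smaller than its error. Between the left pons of day 7 and of day 0, the means were 287 ± 462 and 3.04 ± 4.63 CPM (SD, n = 3 each), with every day 7 library above every day 0 one. Both SDs exceeded their means. By mean, day 7 contralateral and day 7 lesion came first, followed by day 14 lesion, day 14 contralateral, day 0, day 30 lesion and day 30 contralateral. No neighbours in that order differed beyond the spread of their libraries.

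Gh encodes growth hormone, made by somatotrophs (chromosome 11, 106300271 to 106301865). At day 7 Gh had 116, 4.83 and 98 CPM on the lesion side, against 367, 17.3 and 11.2 CPM on the contralateral side, in the same order of libraries as Prl. At day 0 it had 0, 8.36 and 0.103 CPM. At day 14 Gh had 0.0506, 3.57 and 8.62 CPM on the lesion side, against 0, 5.55 and 1.92 CPM on the contralateral side. At day 30 no library exceeded 1.82 CPM. In the 13 libraries with at least 20 counts of both hormones, Prl had 1 to 4.07 times the counts of Gh (median 2.04), while Prl itself varied 503-fold. Per kilobase of exon, Prl averaged 70 CPM and Gh 35.7 CPM.

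Other pituitary hormone genes followed in part. Pomc, the precursor of corticotropin, reached 31.8 CPM in day 7 contralateral replicate 1 and 13 CPM in day 7 lesion replicate 1, against a median of 2.13 CPM. It was also high in replicate 2 of day 14, with 13.4 CPM on the lesion side and 17.4 CPM on the contralateral side, libraries where Prl had 10 and 22.6 CPM. Pomc was at 1.81 CPM in day 14 lesion replicate 3, where Prl had 20.3 CPM, so these hormone genes did not keep 1 ratio. Cga, the subunit shared by the glycoprotein hormones, had 57 counts over the contralateral libraries of day 7, 51 of them in replicate 1, and 1 count over the unoperated ones. It was at 0 in 11 libraries, including all those of day 30. Lhb, the luteinizing hormone subunit gene, reached 2.33 CPM in day 7 lesion replicate 3, against a median of 0.301 CPM, and overlaps exons of Ruvbl2 on the other strand. Tshb, the thyrotropin subunit gene, did not follow, with 2.04 to 4.28 CPM over all libraries and 3.8 CPM in day 7 contralateral replicate 1. Fshb, Ghrhr, Gnrhr and Tbx19 were among the listed genes under the filter on low counts. Of the 13 pituitary genes, 7 were highest in day 7 contralateral replicate 1 and 3 in day 7 lesion replicate 3.

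**Figure D2:**
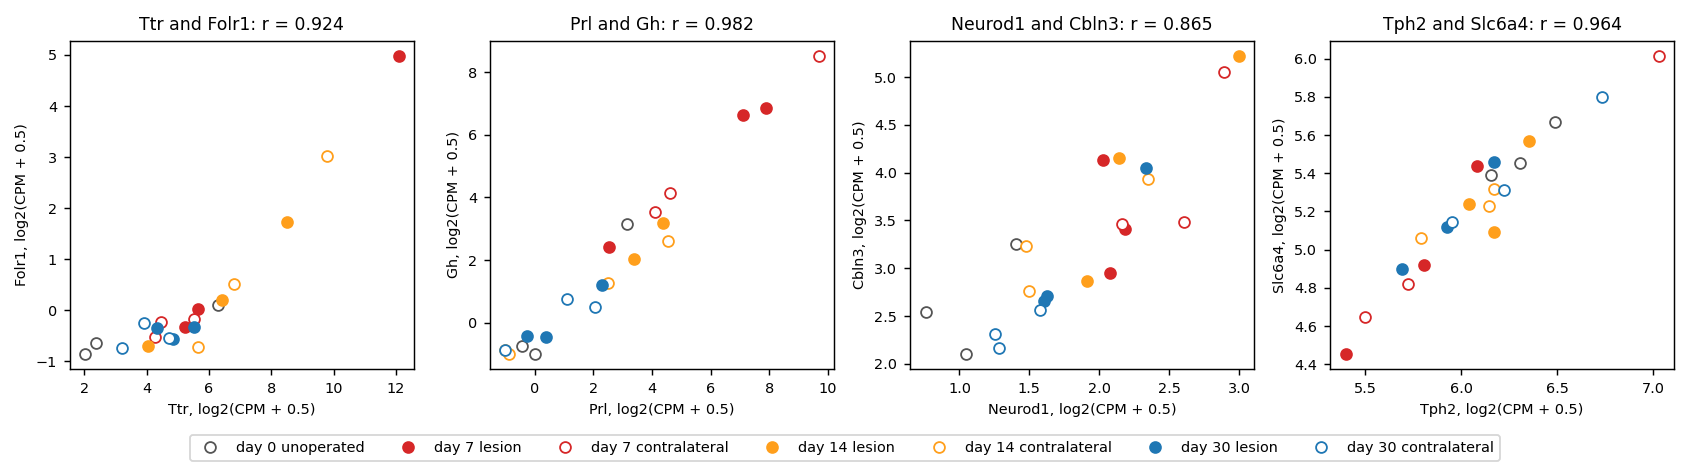
Levels of 4 gene pairs, 1 from each tissue, plotted against each other as log2(CPM + 0.5), with 1 point per library, colour for day and filled points for lesion libraries. Points lie along a line in Prl and Gh and in Tph2 and Slc6a4, while Folr1 rises above its low level in only 3 libraries.

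Neurod1 encodes a transcription factor of granule cells and of other neurons (chromosome 2, 79452521 to 79456751). The unoperated libraries had 2.15, 1.57 and 1.19 CPM. At day 7 Neurod1 had 3.58, 3.73 and 4.05 CPM on the lesion side, against 6.93, 3.99 and 5.6 CPM on the contralateral side. All 6 operated libraries of day 7 thus lay above all 3 unoperated ones. At day 14 Neurod1 had 7.49, 3.91 and 3.27 CPM on the lesion side, against 4.6, 2.28 and 2.33 CPM on the contralateral side. At day 30 it had 4.54, 2.54 and 2.58 CPM on the lesion side, against 1.93, 2.48 and 1.88 CPM on the contralateral side. The sides did not overlap at day 30, with lesion libraries higher, and overlapped at days 7 and 14. Neurod1 shares exon bases with Cerkl on its own strand and with Gm26755 on the other, so its reads may be split with them.

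Zic1 encodes a zinc finger factor of granule cells and their precursors (chromosome 9, 91358058 to 91365810), with exons opposite those of Zic4. At day 0 it had 28, 24.5 and 17.4 CPM. At day 7 Zic1 had 44.1, 35.5 and 39.3 CPM on the lesion side, against 57.4, 36.2 and 40.3 CPM on the contralateral side, again all above the unoperated libraries. At day 14 Zic1 had 55.9, 38.2 and 28 CPM on the lesion side, against 30.4, 34.1 and 32.9 CPM on the contralateral side. At day 30 it had 33.7, 21.2 and 25 CPM on the lesion side, against 18.6, 23.9 and 24 CPM on the contralateral side. Its whole range was 3.29-fold, far narrower than that of the choroid plexus and pituitary genes.

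Cbln3 encodes a cerebellin that granule cells secrete at their synapses (chromosome 14, 55878913 to 55884392). At day 0 it had 9.05, 3.79 and 5.31 CPM. At day 7 Cbln3 had 17, 7.22 and 10.1 CPM on the lesion side, against 32.7, 10.5 and 10.7 CPM on the contralateral side. At day 14 Cbln3 had 36.9, 17.3 and 6.77 CPM on the lesion side, against 14.8, 8.93 and 6.3 CPM on the contralateral side. Replicate 1 was the highest library of each of these 4 groups. At day 30 it had 16, 5.81 and 6.03 CPM on the lesion side, against 4, 5.4 and 4.46 CPM on the contralateral side. Cbln3 spanned 9.72-fold over the 21 libraries. Its counts were 1.91 to 4.93 times those of Neurod1, and those of Zic1 were 1.52 to 6.45 times its own. Per kilobase of exon, Zic1 averaged 5.76, Cbln3 2.41 and Neurod1 1.27 CPM.

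Fitted lesion minus contralateral differences of the 3 granule cell genes were below 0 at day 7 and above 0 at days 14 and 30. Those of Cbln3 were -0.66 ± 0.64, 1.00 ± 0.64 and 1.05 ± 0.72 at days 7, 14 and 30, and those of Neurod1 were -0.53 ± 0.33, 0.65 ± 0.34 and 0.65 ± 0.37 (log2 ± SE). Those of Zic1 were -0.17 ± 0.25, 0.32 ± 0.25 and 0.27 ± 0.26. Each lay within 2 standard errors of 0. In the left pons of day 7 against that of day 0, the differences were 1.75 ± 0.34 for Neurod1, 0.94 ± 0.25 for Zic1 and 1.57 ± 0.64 for Cbln3.

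Among the other cerebellar genes, the granule cell receptor subunit gene Gabra6 ran from 0.351 CPM in unoperated replicate 2 to 14.6 CPM in day 14 lesion replicate 1. The Purkinje cell gene Ppp1r17 ran from 0.445 to 5.8 CPM, and Eomes, a marker of unipolar brush cells, reached 3.9 CPM. These 3 were named after their values were seen. Slc17a7, a vesicular glutamate transporter gene that is not restricted to the cerebellum, was highest in unoperated replicate 2 at 189 CPM, a library with 3.79 CPM of Cbln3. Grin2c, a glutamate receptor subunit gene, held between 35.2 and 53.2 CPM. Of the 17 listed genes, 7 were highest in day 14 lesion replicate 1 and 7 in day 7 contralateral replicate 1.

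Tph2 encodes the tryptophan hydroxylase of serotonergic neurons, the rate-limiting step of serotonin synthesis (chromosome 10, 115078641 to 115185022). At day 0 it had 70.8, 89.2 and 78.7 CPM. At day 7 Tph2 had 67.2, 41.7 and 55.4 CPM on the lesion side, against 44.7, 130 and 52.4 CPM on the contralateral side. The lowest and the highest of all 21 libraries were thus both replicate 2 of day 7, on opposite sides. At day 14 Tph2 had 81.3, 71.5 and 65.3 CPM on the lesion side, against 71.6, 54.8 and 70.4 CPM on the contralateral side. At day 30 it had 71.6, 60.3 and 51.3 CPM on the lesion side, against 106, 74.3 and 61.5 CPM on the contralateral side. Lesion and contralateral libraries overlapped on every day.

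Slc6a4, the gene of the serotonin transporter (chromosome 11, 76998603 to 77032340), ran parallel. At day 0 it had 41.5, 50.4 and 43.3 CPM. At day 7 Slc6a4 had 42.8, 21.4 and 29.8 CPM on the lesion side, against 24.6, 64.2 and 27.8 CPM on the contralateral side. The highest library and the lowest were those of Tph2. At day 14 Slc6a4 had 47, 33.6 and 37.2 CPM on the lesion side, against 39.4, 32.9 and 37 CPM on the contralateral side, and at day 30 43.5, 34.2 and 29.3 CPM on the lesion side, against 55.1, 39.3 and 34.9 CPM on the contralateral side. The count of Tph2 was 1.57 to 2.13 times that of Slc6a4 in all 21 libraries, the narrowest of the ratios that could be taken in every library.

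Fev encodes the factor Pet1 that sets and keeps serotonergic identity (chromosome 1, 74881509 to 74885419). It was low, from 1.76 CPM in day 14 contralateral replicate 2 to 5.2 CPM in unoperated replicate 2, a library that was not the peak of Tph2. At day 7 Fev had 4.44, 2.64 and 1.98 CPM on the lesion side, against 2.21, 4.68 and 2.43 CPM on the contralateral side. The lowest library held 34 counts, so its ratio to Tph2 was measured less closely, and Tph2 had 15.1 to 33.2 times its counts. Per kilobase of exon, Tph2 averaged 24.3, Slc6a4 8.5 and Fev 1.85 CPM. Fitted lesion minus contralateral differences of Tph2 were -0.47 ± 0.34, 0.15 ± 0.33 and -0.40 ± 0.33 at days 7, 14 and 30 (log2 ± SE), and those of Slc6a4 and Fev ran from -0.34 to 0.10.

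Of the other serotonergic genes, Ddc, the decarboxylase that completes serotonin synthesis, peaked at 71.1 CPM in day 7 contralateral replicate 2, where Slc18a2, the vesicular monoamine transporter gene, peaked at 87.6 CPM. Both were lowest in day 7 lesion replicate 2, at 32.4 and 31.7 CPM. Maob, a monoamine oxidase gene also active in glia, stayed between 26.1 and 40.3 CPM. Of the 12 listed genes, 6 were highest in day 7 contralateral replicate 2. Summed over the list, levels ran from 210 to 468 CPM.

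Libraries of one group were then compared with each other. The SD of log2(CPM + 0.5) within groups was taken for the 15480 genes with a mean of at least 1 CPM, whose median was 0.114 and 95th percentile 0.286. Prl had the largest SD of all, 2.44, and Ttr (2.11), Gh (2.01) and Folr1 (1.43) came next, at ranks 2, 3 and 4. Cbln3 had 0.749 (rank 49). Tph2 and Slc6a4 had 0.399 and 0.394 (ranks 226 and 234), Neurod1 0.383 (rank 258), Fev 0.375 (rank 274) and Zic1 0.308 (rank 557). All 10 thus lay above the 95th percentile, on a measure related to the one they were chosen for.

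**Figure D3:**
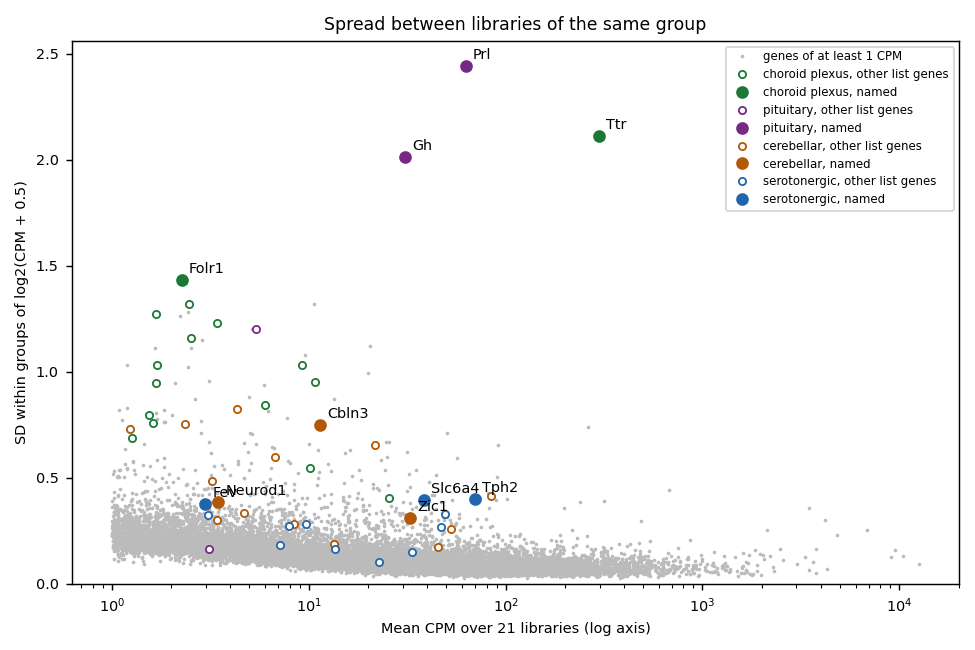
Spread between libraries of the same group (SD of log2(CPM + 0.5), pooled over 7 groups) against mean CPM on a log axis; grey points are the 15480 genes of at least 1 CPM, filled points the 10 genes described, coloured by tissue, and open points the other genes of the 4 tissue lists. Prl, Ttr, Gh and Folr1 stand at the top, and the other 6 named genes at 0.308 to 0.749.

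Genes of one tissue moved together across libraries and genes of different tissues much less. Over 21 libraries, which share groups and sequencing lanes, the Pearson correlation of log2(CPM + 0.5) was 0.677 to 0.982 for the 8 pairs within a tissue (median 0.867). It was -0.501 to 0.552 for the 37 pairs between tissues (median -0.137). Prl and Gh had r = 0.982 (Spearman 0.96, r = 0.966 without the 2 libraries farthest from the median of Prl). Tph2 and Slc6a4 had r = 0.964 (Spearman 0.931, 0.948 without 2 libraries). Ttr and Folr1 had r = 0.924 (Spearman 0.836), and 0.835 without 2 libraries. Zic1 and Cbln3 had r = 0.87 (Spearman 0.879), and Tph2 and Fev the lowest value within a tissue, 0.677 (Spearman 0.727). With group means removed, pairs within a tissue ran from 0.712 to 0.974 and pairs between tissues from -0.416 to 0.305.

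The largest Pearson values between tissues were those of Zic1 with Gh (0.552) and with Prl (0.521), and the lowest that of Ttr with Fev (-0.501). With group means removed, those of Zic1 were 0.0439 and 0.00548. By rank, choroid plexus and cerebellar genes were more alike. Folr1 with Cbln3 had a Spearman value of 0.638 (Pearson 0.179, and 0.0368 with group means removed). Ttr with Cbln3 had 0.623 (Pearson 0.35, and 0.186 with group means removed). Without the 2 libraries farthest from the median of Ttr, that Pearson value was 0.633. Choroid plexus and pituitary genes were weakly related (Ttr and Prl 0.206, Spearman 0.0805). Day 7 lesion replicate 3 was high in both, with 4350 CPM of Ttr and 136 CPM of Prl. Day 14 contralateral replicate 3 was high in Ttr alone, with 878 CPM, and had 5.21 CPM of Prl. Day 7 contralateral replicate 1, the highest in Prl, had 21.7 CPM of Ttr. That library was also high in Cbln3 (32.7 CPM), whereas day 14 lesion replicate 1, with the most Cbln3, had no count of Prl.

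**Figure D4:**
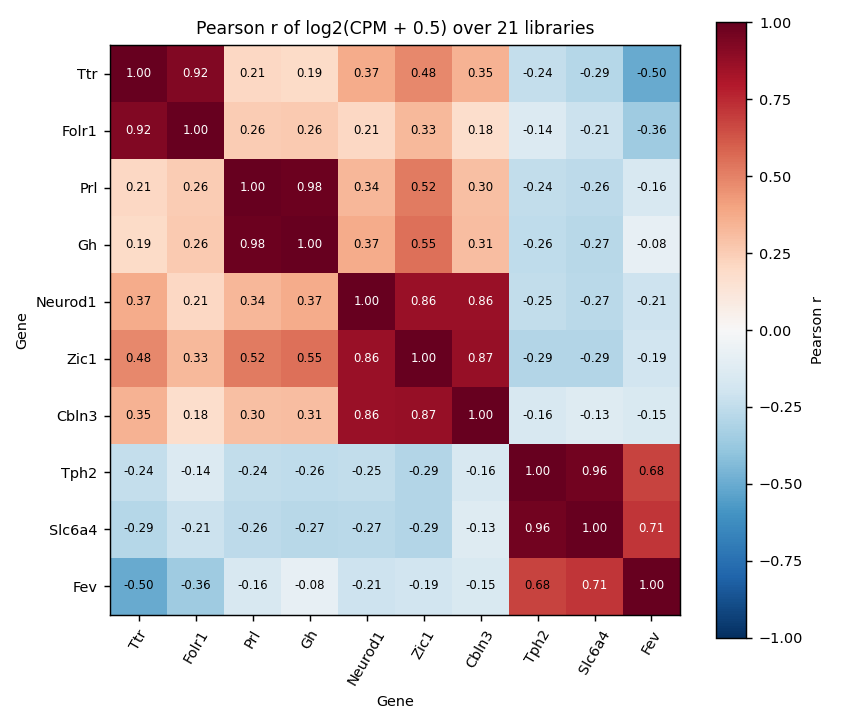
Pearson r of log2(CPM + 0.5) over 21 libraries for every pair of the 10 genes, ordered by tissue; red is positive and blue negative. Blocks of 0.677 to 0.982 lie along the diagonal, and values between tissues run from -0.501 to 0.552.

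The genes most like each were sought over the 21 libraries among 14240 other tested genes with a mean of at least 0.5 CPM. Symbols of predicted, clone-based and mitochondrially encoded genes were left out of the search, as were the 10 genes themselves. For Ttr they were Clic6 (r = 0.962), Kcne2 (0.953) and F5 (0.924), all choroid plexus genes of the list, and 24 genes had r above 0.8. For Folr1 they were Mfrp (0.977), which shares exons with C1qtnf5, F5 (0.972) and Cldn2 (0.969). For Prl they were Pomc (0.767), Lrrc47 (0.762) and Rsph9 (0.705), and for Gh Lrrc47 (0.765), Rsph9 (0.743) and Actn3 (0.743). No gene of this search had r above 0.8 with either hormone gene, and Lrrc47 itself ran only from 31.4 to 44.1 CPM. The cut on the mean left out pituitary genes such as Cga (0.263 CPM) and Lhb (0.447 CPM).

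Among these other genes, Gabra6 was most like the cerebellar Neurod1 (0.863) and Cbln3 (0.962), and Cbln1 most like Zic1 (0.916). Next came Cnpy1 (0.816) and Car8 (0.809) for Neurod1, Gabra6 (0.837) and Fat2 (0.83) for Zic1, and Fat2 (0.925) and Cnpy1 (0.841) for Cbln3. Outside the 3 serotonergic genes described, Ddc was most like Tph2 (0.949) and Slc6a4 (0.923), whereas the correlation of Tph2 with Slc6a4 was higher than both (0.964). Cpne7 (0.833) and Slc22a3 (0.829) followed for Tph2, and Gch1 (0.801) and Slc22a3 (0.795) for Slc6a4. Ush1g (0.828) and Gch1 (0.761) were among those most like Fev.

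Whether nerve injury changed these transcripts was asked by comparing the lesion side with the contralateral side on each day, with edgeR's quasi-likelihood test and Benjamini-Hochberg adjustment over 22294 genes. At day 7, 1.65% of all genes passed an adjusted p of 0.05, at day 14 3.88% and at day 30 1.16%. Of the 10 genes described, 0 were called on any day by this test, and nothing is read from that count. Of the 43 other tested genes of the 4 tissue lists, 0 were called on any day too. On days 7, 14 and 30, 13, 2 and 0 of these 43 had an unadjusted p under 0.05. With the 10 included, 0 of 53 tested genes (58 listed) were called, and 15, 2 and 0 had such a p. The share of all genes under that unadjusted p was not taken, so such counts are a description, here and below. By DESeq2, which called 1.85% of all genes at day 7, 5 of the 53 were called there, and 0 on the other days. All 5 were choroid plexus genes, namely Ttr and Folr1 of the 10 genes described, and Clic6, F5 and Sostdc1. Without day 7 lesion replicate 3, DESeq2 called 0 of the 53 at day 7 and 1.66% of all genes. By limma on the deposited log2 values 0 were called.

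At day 7, 13 of the 16 choroid plexus genes had an unadjusted p under 0.05, all higher on the lesion side, and the list's median log2 difference was 2.62, against -0.00657 over all genes tested. Each of the 16 genes, Ttr and Folr1 among them, was highest in day 7 lesion replicate 3. The list summed to 107 and 93.4 CPM in the other 2 lesion libraries. This was within or next to the 77.4 to 107 CPM of the contralateral ones. Without that library, 0 of the 16 genes had an unadjusted p under 0.05 in edgeR's test, and the median log2 difference was 0.14. At day 14 the median of the list was -0.82 with all libraries and 0.53 without contralateral replicate 3.

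Within the 3 replicate numbers of each day, the higher side was described gene by gene. The labels do not say that equal numbers are 1 animal. At day 14 the numbers do not clearly pair the libraries (same-number r of -0.023 to 0.25). The share of all genes with 1 side higher in 3 of 3 was not taken, so nothing is read from these counts. At day 7 Neurod1, Zic1 and Cbln3 were higher on the contralateral side in 3 of 3 numbers, and Ttr and Folr1 higher on the lesion side in 3 of 3. At day 14 Neurod1, Cbln3 and Slc6a4 were higher on the lesion side in 3 of 3, and Ttr and Folr1 in 1 of 3. For Slc6a4 the sides were nearly equal in replicates 2 (33.6 against 32.9 CPM) and 3 (37.2 against 37 CPM). At day 30 Neurod1 and Cbln3 were again higher on the lesion side in 3 of 3, whereas Tph2, Slc6a4 and Fev were higher on the contralateral side in 3 of 3. Prl, Gh and the remaining cases were split 2 to 1. The difference of the lesion effect between days was called in 0 of the 53 genes for each of the 3 pairs of days (edgeR's quasi-likelihood test). Of all 22294 genes, 0, 6 and 18 were called for day 14 against 7, day 30 against 7 and day 30 against 14. Nothing is therefore read from the 0 of 53. In the same order of pairs, 16, 2 and 0 of the 53 had an unadjusted p under 0.05. Without day 7 lesion replicate 3 the first of these counts was 3, and without day 14 contralateral replicate 3 it was 2.

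The left pons of operated mice was compared with that of unoperated mice to see whether these transcripts differ away from the injury. At day 7, 10.5% of all genes were called, at day 14 15.8% and at day 30 16.1%. Of the 10 genes described, 4 were called at day 7 (Prl, Gh, Neurod1 and Zic1, all higher) and 0 at days 14 and 30. Their levels took part in their choice, so nothing is read from that count. Of the 43 other tested genes of the 4 lists, 2 were called at day 7, both higher, 0 at day 14 and 2 at day 30, both lower, with 9, 3 and 4 at an unadjusted p under 0.05.

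Cga, of the pituitary, and Cbln1, a cerebellin of granule cells, were the 2 genes higher at day 7. Of the 113 counts of Cga, 15, 2 and 32 were in the lesion libraries of day 7 and 51, 4 and 2 in the contralateral ones. The gene thus passed the filter on low counts only through the day 7 libraries, and nothing is read from its calls. Cga had 2.62, 0.199 and 0.0973 CPM in the contralateral libraries of day 7, against 0.0276, 0 and 0 CPM in the unoperated ones (edgeR adjusted p = 0.038). The ratio of rates was 112 (95% interval 19.2 to 4480, exact for counting error only), and 17.4 (2.11 to 800) without contralateral replicate 1, which left 6 counts against 1. Without contralateral replicate 1 of day 7 the adjusted p was 0.16, and without any 1 unoperated library 0.12. Cga lies opposite Platr9. Cbln1 averaged 68.1 ± 17.9 CPM in the contralateral pons of day 7 and 41.9 ± 8.28 CPM in the unoperated pons (SD, n = 3 each; 0.70 ± 0.21, edgeR adjusted p = 0.043). Without contralateral replicate 1 its adjusted p was 0.19, and over all 30 alternatives it ran from 0.0083 to 0.23.

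At day 30 the glutamate transporter gene Slc17a7 and Barhl1, a homeobox gene of granule cell precursors, were lower in the contralateral pons than in the unoperated one. Slc17a7 had 28, 57.9 and 65 CPM in the contralateral libraries of day 30, against 96.4, 189 and 84.4 CPM in the unoperated ones (-1.30 ± 0.34, edgeR adjusted p = 0.016). Barhl1 averaged 2.22 ± 0.41 CPM in the contralateral pons and 4.10 ± 1.29 CPM in the unoperated pons (SD, n = 3 each; -0.89 ± 0.25, edgeR adjusted p = 0.015). Groups did not overlap in either gene. Without unoperated replicate 2, which had the most of both, the adjusted p was 0.088 for Slc17a7 and 0.11 for Barhl1. Without contralateral replicate 1 of day 30 it was 0.068 and 0.088. The granule cell genes Cbln3 (3.79 CPM) and Gabra6 (0.351 CPM) were at their lowest in unoperated replicate 2. Slc17a7 and Barhl1 thus did not follow them there. Unoperated replicate 2 was also the highest library in Hoxb5 (66 CPM) and in the noradrenergic genes (47.7 CPM), and the part of this in the result was not tested. The comparisons with day 0 share the 3 unoperated libraries.

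A test for any difference among the 7 groups called 24.7% of all genes and 12 of the 53 genes of the lists. These were Ttr, Folr1, Prl, Gh, Neurod1 and Zic1 among the genes described, from which nothing is read, and Kcne2, Cga, Cbln1, Slc17a7, Barhl1 and Gata2 besides. From the call of Cga nothing is read either, as it passed the filter only through the day 7 libraries. Kcne2, a potassium channel subunit gene of the choroid plexus, had an edgeR adjusted p of 0.039, and 0.058 without day 7 lesion replicate 3. Gata2, a factor of developing serotonergic and other brainstem neurons, had 10.1 to 17.1 CPM over the libraries and an edgeR adjusted p of 0.039, and 0.095 without day 7 lesion replicate 3. Without both libraries highest in choroid plexus transcript 6 of the 53 genes and 21.5% of all genes were called, and without the 3 highest in pituitary transcript 4 and 23.1%.

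**Figure D5:**
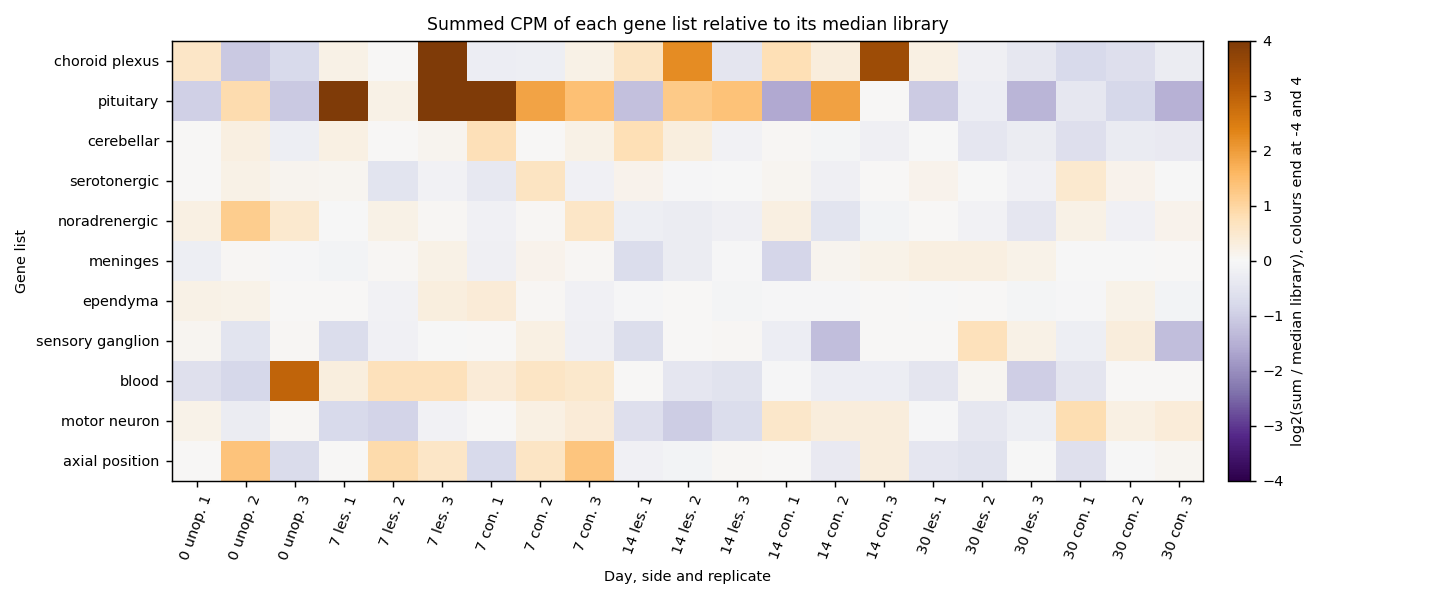
Summed CPM of 11 gene lists in each of the 21 libraries, as log2 of the ratio to the list's median library, in colours that end at -4 and 4; libraries run along the horizontal axis by day, side and replicate. The choroid plexus and pituitary rows hold the strongest colours, and the blood row 1 strong library, unoperated replicate 3 with 45.1 CPM.

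A further 7 lists describe what else the blocks held. Motor neuron genes, which mark the labelled tissue itself, summed to 88.2 to 318 CPM. Slc5a7, the choline transporter gene, was the most abundant of them at 26.6 to 156 CPM. These sums were lower on the lesion side, without overlap, on every day. They were 97.3 to 161 against 179 to 235 CPM at day 7, and 88.2 to 116 against 223 to 262 CPM at day 14. At day 30 they were 135 to 174 against 211 to 318 CPM, and the unoperated libraries had 145 to 202 CPM. Ependymal genes summed to 36.6 to 54.7 CPM, led by Foxj1, and meningeal genes to 64.9 to 141 CPM, led by Dcn. The sums of both lists had their highest value outside day 7 lesion replicate 3, although 3 of the 7 ependymal genes (Foxj1 at 39.7, Dynlrb2 at 2.63 and Hydin at 2.03 CPM) and 2 of the 6 meningeal ones (Ogn at 25.8 and Lum at 11.1 CPM) peaked there. Sensory ganglion genes stayed at 0.467 to 1.86 CPM in all, led by Avil. Noradrenergic genes reached 47.7 CPM in unoperated replicate 2 and ran from 15.1 to 32.2 CPM elsewhere, led by Dbh. Haemoglobin genes, led by Hbb-bs, summed to 45.1 CPM in unoperated replicate 3 and to 2.96 to 9.83 CPM elsewhere.

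Genes of axial position, led by Hoxb5, differed between blocks too. Hoxb5, a homeobox gene of the caudal hindbrain and spinal cord that lies opposite Hoxb5os, had 15.9, 66 and 4.95 CPM at day 0. At day 7 it had 18.4, 45.2 and 29.8 CPM on the lesion side, against 4.36, 29.2 and 64.3 CPM on the contralateral side. Its highest libraries, unoperated replicate 2 and day 7 contralateral replicate 3, were not those of Ttr or Prl, and its lowest was day 7 contralateral replicate 1, the one with the most Prl. The part of these differences between blocks in the results above was not tested.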

How the data were processed

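The deposited table holds raw counts per gene symbol, 1 column for each of the 21 libraries, made from 300 ng of RNA with a stranded kit and 50-base single reads, per the labels' protocols. Bases were called with CASAVA 1.8.2 and reads aligned with Rsubread to GRCm38.p4 with GENCODE M7 and counted with featureCounts, per the series' design text and the submitters' processing notes. Whether the counting used strand is not given in the sources used here, so reads of overlapping genes may be shared. The deposited voom matrix holds log2 CPM values, and for 22269 genes matched by symbol they were recomputed from the counts to within 5e-11. The count columns of day 30 are named with the other side than the labels give. The descriptions of the samples say which column belongs to which sample and were followed, so every day 30 direction rests on them. Under this mapping each of the 21 log2 columns was most like its own sample's counts.

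Genes with a summed count above 29 (the 32nd percentile of the 32815 genes with a count, as the authors filtered) were tested, 22294 in all, with edgeR 4.0.16 in R 4.3.3 (TMM, quasi-likelihood F-test with robust settings, a coefficient for each group, 21 libraries, Benjamini-Hochberg, called under an adjusted p of 0.05). The test was tried on simulated data. Tests were two-sided, and with 3 libraries a side an exact test reaches no p under 0.1. Correlations used log2(CPM + 0.5). Exon lengths are those given in the deposited count table, and positions and exon overlaps are from GENCODE M21. Alternatives were DESeq2 1.42.0, limma 3.58.1 on the deposited log2 values, other scaling and filters, a fit of only the groups compared, a replicate block, and leaving libraries out.

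The 10 genes and all gene lists were chosen with earlier results of these data known. Named were the 10 genes, the 3 most abundant other genes of each tissue list, those called, the 3 genes most like each of the 10, and the most abundant gene of each further list. Some genes that this rule or the lists include are not reported here. Same-numbered left and right libraries correlated, after group means were removed, at 0.18 to 0.3 at day 7, -0.023 to 0.25 at day 14 and 0.2 to 0.24 at day 30, so the numbers may pair samples at days 7 and 30.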

Additional observations from a re-analysis of the deposited data

How the results depend on the processing

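Counts of called genes among the 53 tested genes of the 4 tissue lists depended on single libraries. The 53 include the 10 genes described, whose levels took part in their choice. The share of all genes called under the same setting is given beside these counts. Lesion against contralateral side stayed at 0 when any 1 library was left out, on all 3 days. DESeq2 called 5 at day 7 (1.85% of all genes) and 0 without day 7 lesion replicate 3. A replicate block called 0 at days 7 and 30 and 2 at day 14, where it called 8.51% of all genes and the numbers do not clearly pair the libraries. These 2 were Neurod1, 1 of the 10 genes described (0.66 ± 0.189), and Ppp1r17 (1.23 ± 0.31, log2 ± SE). Both were higher on the lesion side. For the contralateral pons of day 7 against the unoperated one, the count of 6 ran from 1 (without unoperated replicate 3, with 8.43% of all genes, and likewise without contralateral replicate 1, with 9.67%) to 6 with single libraries left out. It was 1 when the fit held only the 2 groups compared (7.11% of all genes), 2 without both libraries highest in choroid plexus transcript (9.87%) and 1 without the 3 highest in pituitary transcript (9.45%). For day 14 the count of 0 ran to 4 (without day 7 lesion replicate 3, with 15.8% of all genes), and was 1 by DESeq2 (16.3%), 2 by limma on the deposited values (15.1%), 1 with only those groups fitted (12.5%), 1 without the choroid plexus libraries (11.2%) and 3 without the pituitary ones (15.6%). For day 30 the count of 2 ran from 0 (without unoperated replicate 2, with 13.5% of all genes, or contralateral replicate 1, with 12.2%) to 3. Among 7 groups, the count of 12 ran from 6 (without day 30 contralateral replicate 1 or 2, with 22.6% and 22% of all genes) to 19 (without day 7 lesion replicate 2, with 22.8%), and was 23 by DESeq2 (28.7%), 6 without the choroid plexus libraries (21.5%) and 4 without the pituitary ones (23.1%). Leaving out several libraries at once, or 1 in DESeq2, was chosen after the data were seen. The cause of these changes was not tested.

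Other scalings and filters left these counts within 1.5 times. Of 1840 refitted log2 differences of the 10 genes, 1784 moved by no more than 1 standard error. Of 40 refitted correlations within a tissue 39 moved by under 0.1, and the lowest was 0.652. Folr1, Cga and Fev are limited by depth, with 1098, 113 and 1549 counts in all.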
